A study of Capra hircus with 13 samples.

Results

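*ZNF* genes code for zinc finger proteins, and 127 of them with measurable RNA in goat oocytes and early embryos were described across development and after knockdown of *YTHDF2*. They were chosen by name and level: of 249 names made of ZNF and a number that stood once in each of the 5 deposited tables, those whose FPKM averaged at least 1 across the 9 untreated libraries were kept. FPKM, a fragment count divided by transcript length and library total, is a level per length of transcript, so that genes can be compared with each other. The 5 tables share 18138 names, and 9074 of these reach the same mean. Beside them, 36 genes named *ZBTB*, *ZSCAN*, *ZKSCAN* or *ZFP* met the same requirement.

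The untreated libraries were 3 of MII oocytes, which are mature and wait for fertilization, 3 of 4-cell embryos and 3 of 8-cell embryos. The injected libraries were 2 of 8-cell stage embryos given negative control siRNA (NC) and 2 of 8-cell stage embryos given siRNAs against *YTHDF2* (YTHDF2 knockdown embryos), all injected as zygotes 8 h after in vitro fertilization. The titles of the NC libraries call them WT, while their treatment label names the NC siRNA. All material came from *Capra hircus*, was matured or fertilized in vitro, and was made into Smart-seq2 libraries of polyadenylated RNA from lysed oocytes or embryos. Each injected library was a pool of embryos, and the untreated libraries were taken over from earlier work of the same laboratory, so stage and the study of origin cannot be told apart where they coincide. Strain and animal of origin are not given in the sources used here, and p-values measure only the spread between these libraries.

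Most *ZNF* proteins carry rows of C2H2 zinc fingers that read DNA. The largest class in mammals also holds a KRAB domain, which recruits TRIM28 and, through it, the histone methyltransferase SETDB1 and HP1 proteins, and these proteins are known for silencing transposable elements in oocytes and early embryos. Other zinc finger proteins lack this domain and act on RNA, ribosome assembly, promoters or the spindle. YTHDF2 is a cytoplasmic protein that binds m6A-modified RNA and brings it to the decay machinery. During the maternal-to-zygotic transition, maternal RNA is removed and the embryo starts to transcribe its own genes. Their protein features (finger number, KRAB domain) were not analysed here.

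The untreated libraries held 22.5 to 28.8 M fragments on the shared genes, recovered from the steps of the values, while the depth of the injected libraries is unknown. Some libraries stood above the others of their group. The widest case was 8-cell replicate 1, which was more than 2-fold above both other 8-cell libraries for 26 of the 127 *ZNF* genes (20.5%), against 19.3% of all 9090 genes fitted. The same held in 4-cell replicate 2 for 10.2% of the *ZNF* genes and 9.65% of all genes, in MII replicate 2 for 6.30% and 9.69%, and in each of the 6 other untreated libraries for 2.36% of the *ZNF* genes or fewer. The oocyte and early embryo markers (8 of 10 listed, *GDF9*, *BMP15* and *ZP2* among them) had a summed level of 1463 to 3427 FPKM in the untreated libraries. The cumulus and granulosa markers (9 of 10 listed) summed to 11.6 to 30.8 FPKM in oocytes, 21.2 to 25.9 in 4-cell and 32.6 to 51.9 in 8-cell embryos, most of it from *HAS2* and *TNFAIP6*, and *AMH* was listed at 0 in all 9 libraries. In bulk libraries, fewer cells of a type and less RNA per cell cannot be told apart.

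Of the 127 genes, 93 had a mean of at least 1 FPKM at all 3 stages, 24 at 2 stages and 10 at 1 stage. For 19 genes, the 10 among them, the mean of the other 6 untreated libraries was under 1 FPKM when 1 stage was left out, so that the level at that stage brought them in. The stage was MII for *ZNF395* and *ZNF593*, and 4-cell embryos for *ZNF189*, *ZNF367* and *ZNF614*. It was 8-cell embryos for 15 genes (*ZNF131*, *ZNF189*, *ZNF212*, *ZNF287*, *ZNF296*, *ZNF322*, *ZNF362*, *ZNF384*, *ZNF394*, *ZNF467*, *ZNF518B*, *ZNF541*, *ZNF629*, *ZNF641* and *ZNF711*). Changes of these genes toward that stage are a description and are given without a p. The lowest means inside the limit were those of *ZNF711* (1.03 FPKM), *ZNF467* (1.03) and *ZNF629* (1.05). Just outside lay *ZNF142* (0.960), *ZNF574* (0.943) and *ZNF112* (0.907). Without 1 library, the mean of the other 8 was under 1 FPKM for 15 of the genes. For 11 of them this library was 8-cell replicate 1, namely *ZNF212*, *ZNF296*, *ZNF322*, *ZNF362*, *ZNF384*, *ZNF467*, *ZNF518B*, *ZNF541*, *ZNF629*, *ZNF641* and *ZNF786*. *ZNF296* had 22.8 FPKM in it and a mean of 0.619 over the other 8. The other 4 were *ZNF189*, which was called higher in 4-cell embryos and passed through 4-cell replicate 2, and *ZNF287*, *ZNF593* and *ZNF711*.

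The *ZNF* genes were mostly low. The median of the stage means was 2.66 FPKM in oocytes, 4.19 in 4-cell embryos and 4.34 in 8-cell embryos. The number with a mean of at least 10 FPKM was 16, 34 and 33 in the same order. These levels are on the deposited scale, and their differences between stages rest on the scaling of the libraries. The median log2 fold change from oocytes was 0.52 in 4-cell and 0.50 in 8-cell embryos as deposited. With values scaled to the same sum over the shared names it was 0.10 and 0.19. In each untreated library the median *ZNF* gene lay below the median of all genes that averaged at least 1 FPKM: 2.20 to 3.15 against 5.19 to 6.79 in oocytes, 3.59 to 4.84 against 6.47 to 8.19 in 4-cell embryos, and 3.35 to 5.02 against 6.93 to 9.54 in 8-cell embryos. Together they made up 0.346% to 0.423% of the summed FPKM of the shared genes.

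A few genes stood far above the median. The highest, *ZNF215*, a KRAB zinc finger gene, had 220, 229 and 237 FPKM in oocytes, 247, 333 and 278 in 4-cell embryos and 210, 181 and 220 in 8-cell embryos. Next was *ZNF706*, which codes for a small protein with a single finger, with 165, 143 and 191 FPKM, then 272, 262 and 221, then 255, 222 and 225. Both were high in each of the 9 libraries, and neither was called in a stage comparison. *ZNF330*, a nucleolar protein gene, *ZNF829*, a KRAB gene, and *ZNF32* followed with means of 94.2, 41.4 and 38.3 FPKM over the 9 libraries.

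The first comparison asked how levels differed after fertilization, between MII oocytes and 4-cell stage embryos. A gene was called when its adjusted p was under 0.05 and its change more than 2-fold on the log2(FPKM + 1) scale, which understates the change of low genes. In 4-cell embryos 21 of 127 *ZNF* genes were called higher, where 15.4% of all 9090 genes were, and 1 was called lower, where 5.09% were. The median log2 fold change was 0.52 for the *ZNF* genes and 0.29 for all genes, and 88 *ZNF* genes (69.3%) lay above 0, as did 64.8% of all genes. The share called higher (16.5%) was thus near that of all genes. Among the called genes, *ZNF189* and the gene called lower were included through the stage where they were high. Without 4-cell replicate 2 the medians were 0.34 and 0.20.

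These counts rested on the scaling of the libraries. The split of 21 higher and 1 lower became 10 and 2 with median-ratio rescaling or with values scaled to the same sum over the shared names, and 11 and 4 with voom on recovered fragments. Of all genes 9% were then called higher and 8.07% lower, 7.04% and 10.7%, and 7.04% and 11.9%. The median of all genes moved from 0.29 to 0.06, -0.15 and -0.18 with these scalings, and that of the *ZNF* genes to 0.28, 0.10 and 0.10. All 21 genes kept their direction in these 3 scalings, and 9, 10 and 11 of them kept their call.

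**Figure D1:**
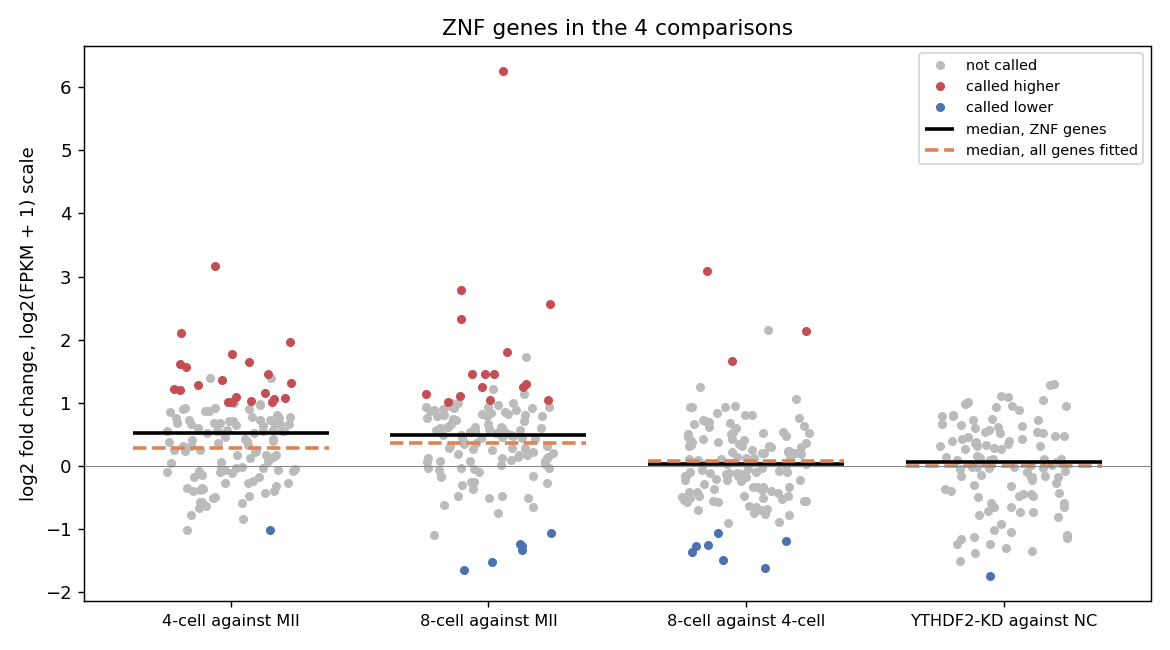
Log2 fold change of each *ZNF* gene on the log2(FPKM + 1) scale (y axis) in the 4 comparisons (x axis), with genes called higher in red, called lower in blue and others in grey; the points are spread sideways at random. The solid line is the median of the *ZNF* genes and the dashed line that of all genes fitted, 0.52 and 0.29 in 4-cell embryos against MII, and 0.06 and 0.01 in the knockdown, where 1 gene was called.

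The furthest rise in 4-cell embryos was that of *ZNF596*, a KRAB zinc finger gene. It was low in oocytes, at 0.254, 0.0985 and 0.102 FPKM (10, 4 and 5 fragments), and reached 4.62, 24.8 and 6.47 FPKM in 4-cell embryos (153, 766 and 214 fragments). The ratio of the means was 78.9, and the log2 fold change was 3.16 ± 0.55 (SE, limma adjusted p = 0.0027). Without 4-cell replicate 2, the highest of the 4-cell libraries, the log2 fold change was 2.5. The groups did not overlap.

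*ZNF283*, a KRAB gene, had 5.08, 4.07 and 4.01 FPKM in oocytes and 24.2, 18.8 and 23.3 in 4-cell embryos, and fell back to 5.88, 12.7 and 9.87 in 8-cell embryos. Its log2 fold change was 2.098 ± 0.27 in 4-cell embryos (limma adjusted p = 0.00060) and -1.19 ± 0.27 from 4- to 8-cell embryos (limma adjusted p = 0.028). The 4-cell libraries thus lay above all others for this gene. The second call was lost under 7 of the 13 other fits, among them without 4-cell replicate 1, 4-cell replicate 3, 8-cell replicate 1 (-0.91 ± 0.23) or 8-cell replicate 3, while the first was lost under none of the 13.

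*ZNF32* showed the same order at a higher level, with 18.4, 25.6 and 21.3 FPKM, then 74.1, 53.5 and 85.4, then 19.8, 25.2 and 21.6. It was higher in 4-cell embryos than in oocytes (1.65 ± 0.22, limma adjusted p = 0.00070) and lower again in 8-cell embryos (-1.62 ± 0.22, limma adjusted p = 0.0053). The MII and 8-cell libraries overlapped and the 4-cell libraries lay clear of both. *ZNF568*, a KRAB gene, was the third with both calls, at means of 8.98, 19.4 and 8.80 FPKM. Its rise lost the call under 6 alternatives, among them all 3 other scalings and each fit without 4-cell replicate 3, MII replicate 2 or MII replicate 3. Its fall lost the call under 5, among them without 4-cell replicate 1, 4-cell replicate 3 or 8-cell replicate 3.

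*ZNF502* had 0.440, 2.47 and 0.279 FPKM in oocytes and 5.16, 5.22 and 8.91 in 4-cell embryos (1.96 ± 0.46, limma adjusted p = 0.011). *ZNF354A*, a KRAB gene first described in kidney, had 1.99, 3.24 and 2.15 FPKM, then 13.1, 8.30 and 11.3 (1.78 ± 0.24, limma adjusted p = 0.00082). It stayed at that level in 8-cell embryos, with 9.46, 11.1 and 12.6 FPKM. The other 16 genes called higher rose by 1.01 to 1.62 on the log2 scale.

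The single gene called lower was *ZNF395*, a transcription factor gene that was included through its MII level, with 1.86, 2.34 and 3.77 FPKM in oocytes and 0.869, 1.14 and 0.4002 in 4-cell embryos. Its change was -1.01 ± 0.27, just past the limit of 2-fold. It did not pass without 4-cell replicate 3 or without MII replicate 3. In 8-cell embryos it had 0.638, 0.444 and 0.463 FPKM (-1.24 ± 0.27).

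The second comparison set 8-cell stage embryos against the same MII oocytes, so both share their controls. Of 127 *ZNF* genes 16 were called higher (12.6%), against 18.5% of all genes, and 6 lower (4.72%), against 7.58% of all genes. Of these, 3 called higher (*ZNF131*, *ZNF296* and *ZNF394*) and 2 called lower (*ZNF395* and *ZNF593*) were included through the stage where they were high. The median was 0.50 for the *ZNF* genes and 0.37 for all genes, and without 8-cell replicate 1 these were 0.32 and 0.24. The cumulus and granulosa markers moved with this comparison, since their sums in 8-cell embryos lay above those in oocytes and in 4-cell embryos, and their part in the *ZNF* differences was not tested. With median-ratio rescaling the split was 8 higher and 7 lower, with values scaled to the same sum 9 and 9, and with voom 9 and 11, where 11.6% and 11.6%, 11.6% and 12.7%, and 10.2% and 15.3% of all genes were called. The medians of all genes were then 0.06, 0.02 and -0.11. The 16 kept their direction in these 3 scalings while 7 or 8 of them kept their call, and the 6 called lower kept their call in each.

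*ZNF596* rose furthest again, to 77.5, 155 and 54.0 FPKM in 8-cell embryos (2423, 4903 and 1889 fragments), 630 times its MII mean. The log2 fold change was 6.25 ± 0.55 against MII (limma adjusted p = 8.0e-05) and 3.09 ± 0.55 against 4-cell embryos (limma adjusted p = 0.013). It was the only *ZNF* gene called higher in all 3 stage comparisons.

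*ZNF394*, which codes for a protein with SCAN and KRAB domains, had 0, 0.194 and 0.101 FPKM in oocytes, 0.0446, 1.59 and 0.923 in 4-cell embryos and 5.33, 15.8 and 3.13 in 8-cell embryos. It was included through its 8-cell level. Its fitted change was 2.79 ± 0.51 from oocytes and 2.13 ± 0.51 from 4-cell embryos. The 8-cell libraries lay above all 6 others, and they spread over a wide range.

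*ZNF131*, a BTB zinc finger transcription factor gene, had 0.559, 0.550 and 0.369 FPKM, then 0.803, 2.24 and 1.25, then 5.30, 10.6 and 4.70. It was included through its 8-cell level, the mean of the other 6 libraries being 0.962 FPKM. Its fitted change was 2.33 ± 0.33 from MII and 1.66 ± 0.33 from 4-cell embryos. *ZNF596*, *ZNF394* and *ZNF131* were each highest in 8-cell replicate 2 among the 8-cell libraries.

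*ZNF296*, whose protein partners with pluripotency factors such as KLF4, was at 0 in all 3 MII libraries, and had 0.255, 0.566 and 0.217 FPKM in 4-cell embryos. In 8-cell embryos it had 22.8, 1.99 and 1.92 FPKM (2286, 202 and 215 fragments). With 3 fragments per library taken as the floor for MII, 0.0192 to 0.0238 FPKM, the 8-cell mean was at least 405-fold higher, and the mean without 8-cell replicate 1 at least 89.0-fold higher. The gene met the requirement of 1 FPKM only through 8-cell replicate 1, so these values are a description and no test of a stage difference is drawn from them.

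*ZNF143*, a transcription factor that binds many promoters and the anchors of chromatin loops, had 20.4, 26.6 and 13.5 FPKM in oocytes, 16.4, 13.6 and 18.0 in 4-cell embryos and 3.87, 6.82 and 6.38 in 8-cell embryos. Its log2 fold change was -1.64 ± 0.28 against MII (limma adjusted p = 0.0019) and -1.37 ± 0.28 against 4-cell embryos (limma adjusted p = 0.023), the second not called without 4-cell replicate 1, 4-cell replicate 3 or 8-cell replicate 3. *ZNF181*, a KRAB gene, had 15.8, 13.1 and 13.3 FPKM, then 15.6, 15.1 and 16.9, then 3.95, 6.10 and 5.05. Its changes were -1.33 ± 0.20 (limma adjusted p = 0.00094) and -1.497 ± 0.20 (limma adjusted p = 0.0052), and for both genes the 8-cell libraries lay under the other 6.

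*ZNF330* had 132, 121 and 134 FPKM in oocytes, 104, 83.0 and 112 in 4-cell embryos and 43.2, 53.8 and 63.9 in 8-cell embryos, where it was called lower (-1.27 ± 0.19 against MII, limma adjusted p = 0.00087). *ZNF593*, a factor of ribosome assembly, had 1.10, 8.14 and 1.26 FPKM in oocytes and 0.198, 0.195 and 0.265 in 8-cell embryos (4, 4 and 6 fragments). It was included through MII replicate 2, without which its mean was 0.659 FPKM, and its change of -1.53 ± 0.50 was not called without that library, nor without any single 8-cell library. *ZNF326*, a subunit of a complex that joins transcription and splicing, had 6.76, 5.79 and 6.22 FPKM in oocytes, and 2.65, 2.49 and 2.26 in 8-cell embryos (-1.07 ± 0.23, limma adjusted p = 0.0056).

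**Figure D2:**
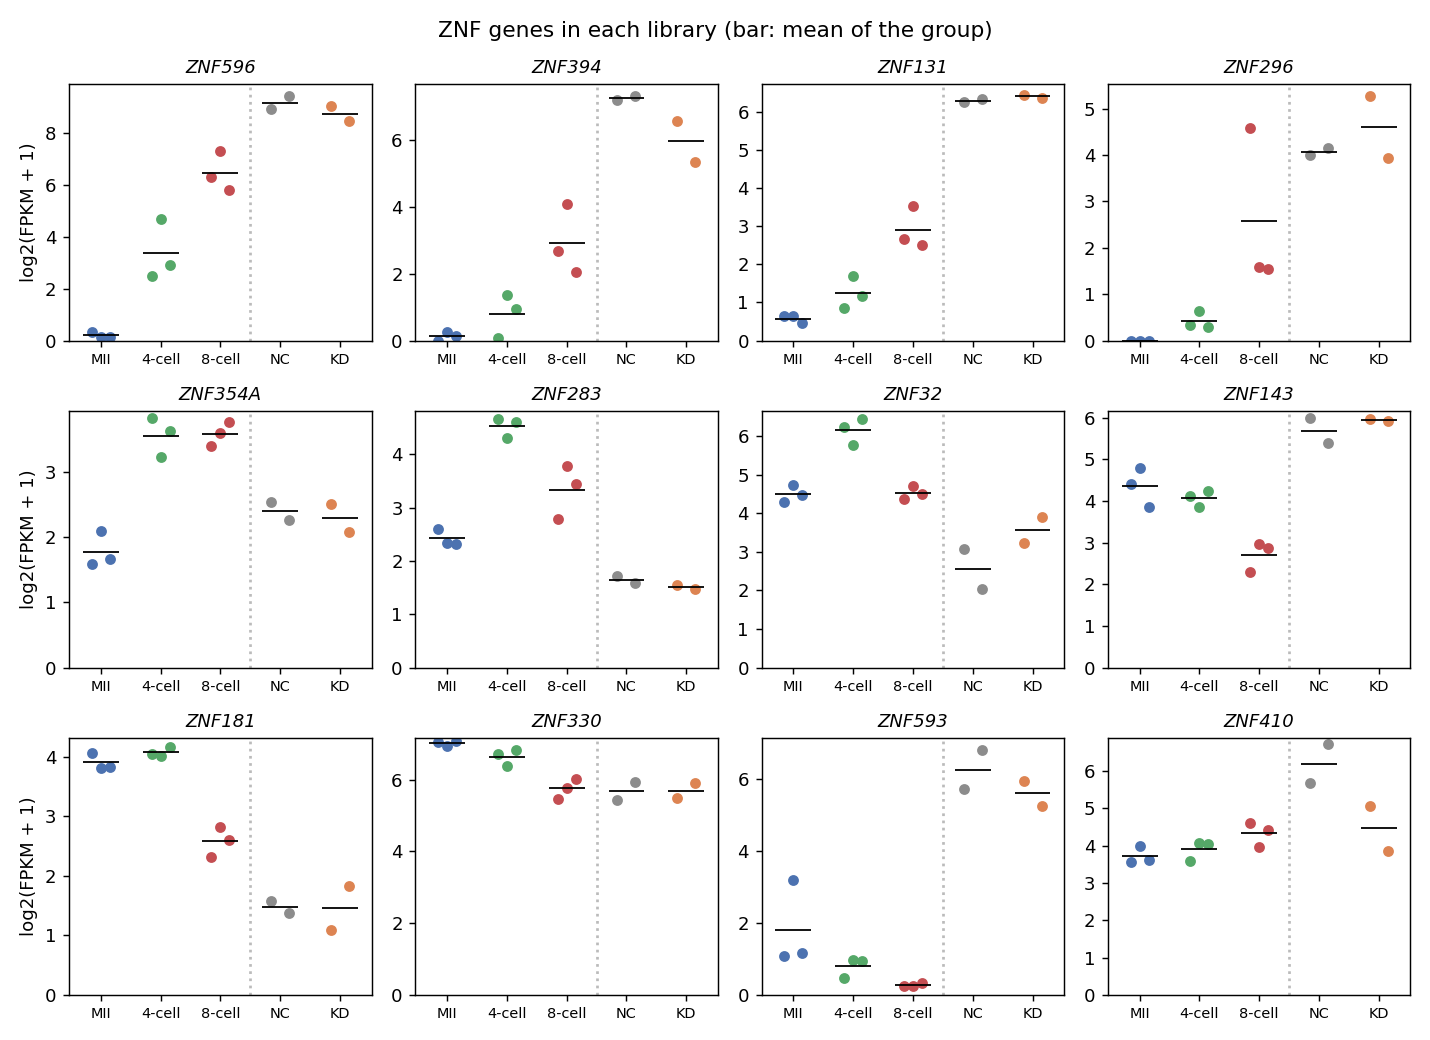
Level of 12 *ZNF* genes in each library as log2(FPKM + 1) (y axis, from 0), by group (x axis), each point being 1 library and each bar the mean of its group; the dotted line divides untreated from injected embryos, which were normalized apart. *ZNF596* went from 0.254 FPKM or less in oocytes to 54.0 or more in 8-cell embryos, *ZNF283* and *ZNF32* were highest in 4-cell embryos, and *ZNF143* and *ZNF181* were lowest of the untreated groups in 8-cell embryos.

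From 4- to 8-cell embryos 3 *ZNF* genes were called higher, where 2.29% of all genes were, and 7 lower, where 3.17% were. The 3 were *ZNF596*, and *ZNF394* and *ZNF131*, both of which were included through their 8-cell level. The 7 were *ZNF32*, *ZNF181*, *ZNF143*, *ZNF26*, *ZNF793*, *ZNF283* and *ZNF568*. Without 4-cell replicate 1, and also without 4-cell replicate 3, the counts were 0 and 3, so that all 3 rises lost their call. Of all genes 0.858% and 1.53% were called higher and lower in the first of these fits, and 0.935% and 1.47% in the second. Without 8-cell replicate 3 the counts were 3 and 4, where 1.51% and 1.95% of all genes were called. *ZNF394* was also not called without 8-cell replicate 2. *ZNF26*, a KRAB gene, had 5.62, 4.94 and 5.57 FPKM in oocytes, 9.17, 12.9 and 12.7 in 4-cell embryos and 3.58, 4.21 and 4.74 in 8-cell embryos (-1.27 ± 0.21, limma adjusted p = 0.0099). *ZNF793*, also a KRAB gene, had 2.20, 2.81 and 4.87 FPKM in 4-cell embryos and 0.873, 0.287 and 1.17 in 8-cell embryos (-1.26 ± 0.30, limma adjusted p = 0.036), a call lost under 10 of the alternatives tried.

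Over the 3 stage comparisons 38 *ZNF* genes had a call (29.9%, against 33.9% of all genes) and 89 had none. Of the 21 called higher in 4-cell embryos, 7 were also called higher in 8-cell embryos against MII. Among the 7, *ZNF596* alone was called higher in all 3 comparisons (0.787% of the *ZNF* genes, against 0.704% of all genes). Another 3 were called lower from 4- to 8-cell embryos (2.36%, against 0.792% of all genes), and 11 (8.66%, against 4.55% of all genes) had no other call. A gene without a second call is not shown to differ between the embryo stages. Among the 11, *ZNF2* and *ZNF655* kept their call in all 13 other fits. The other 9 lost it in at least 1 of the 3 other scalings, 7 of them in all 3 (*ZNF106*, *ZNF277*, *ZNF461*, *ZNF512*, *ZNF557*, *ZNF569* and *ZNF879*), so that the share of 8.66% rested on the scaling. Called higher in 8-cell embryos against MII alone were 7 (5.51%, against 7.13% of all genes). Of these *ZNF233*, *ZNF582*, *ZNF608* and *ZNF652* lost the call in all 3 other scalings, and *ZNF483* and *ZNF532* lost it in 2. The last of the 7, *ZNF296*, was included through 8-cell replicate 1.

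Besides *ZNF596*, the genes called higher against MII at both stages were *ZNF354A*, *ZNF382*, *ZNF502*, *ZNF507*, *ZNF583* and *ZNF639* (4.72%, against 9.22% of all genes). *ZNF354A* and *ZNF507* kept both calls in all 13 other fits. *ZNF382* lost its 4-cell call under 6 of them and its 8-cell call under 4, and *ZNF583* lost its 4-cell call under 3, with all 3 other scalings among these for both genes. *ZNF639* lost its 8-cell call under 7 and *ZNF502* under 9. For both the 3 other scalings and the fits without 8-cell replicate 2, 8-cell replicate 3, MII replicate 1 or MII replicate 3 were among these. By the order of the 3 means, called or not, 40 of the 127 had the order MII, 4-cell, 8-cell from low to high, 39 were highest in 4-cell embryos with MII lowest, and 22 were highest in 8-cell embryos with 4-cell embryos lowest. These were 31.5%, 30.7% and 17.3% of the *ZNF* genes, against 33.8%, 22.1% and 13.1% of all genes. Of the 22, 14 were over 2-fold higher in 8-cell replicate 1 than in both other 8-cell libraries. The other 3 orders held 12, 11 and 3 genes (9.45%, 8.66% and 2.36%), against 12.2%, 9.39% and 9.37% of all genes, the last being the order MII, 8-cell, 4-cell from high to low.

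**Figure D3:**
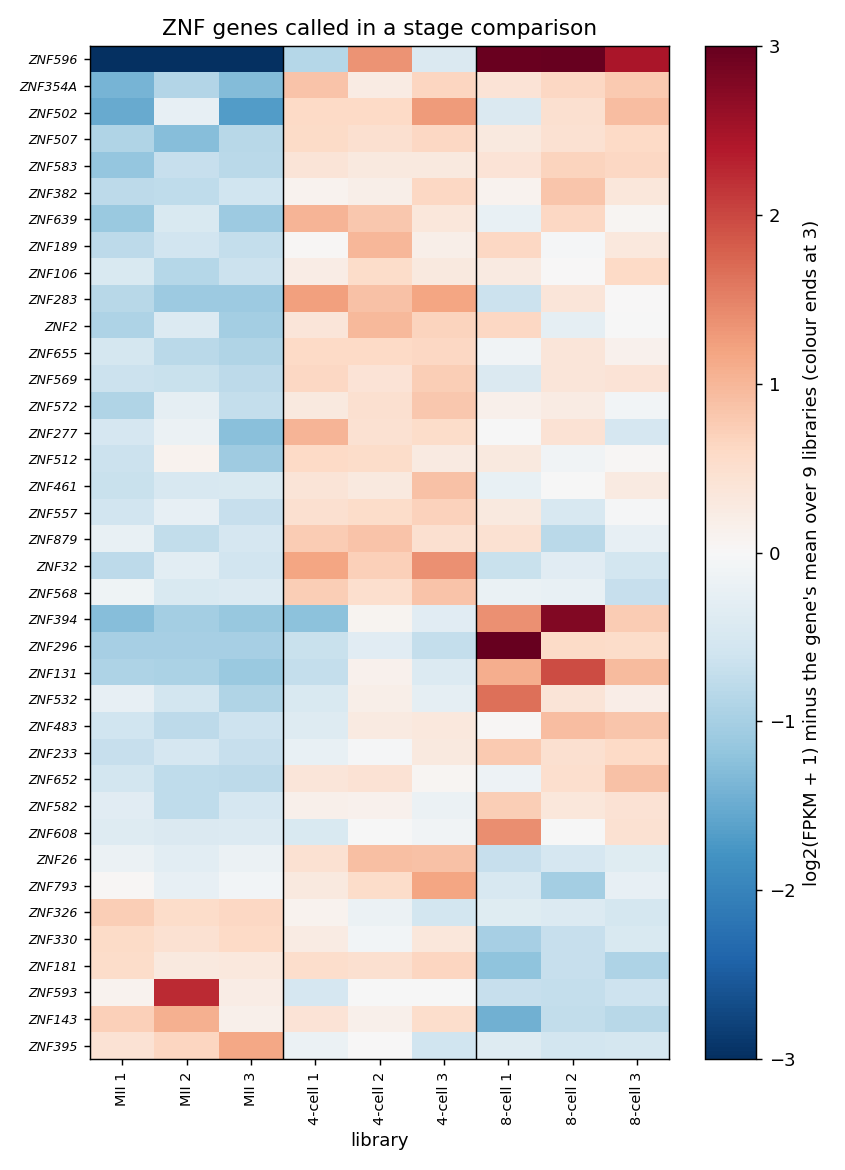
Heatmap of the 38 *ZNF* genes called in a stage comparison (rows) in the 9 untreated libraries (columns), coloured by log2(FPKM + 1) minus the mean of the gene, with red above and blue below it. *ZNF596* and *ZNF394* are red in 8-cell embryos, *ZNF32* and *ZNF283* in 4-cell embryos, and the bottom 6 genes, called lower in 8-cell embryos than in oocytes, are blue there.

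Of the 26 *ZNF* genes over 2-fold above both other 8-cell libraries in 8-cell replicate 1, 17 also averaged at least 1 FPKM without it. Of the 17, 2 were called against MII, *ZNF532* and *ZNF608*, and 0 against 4-cell embryos, where 174 and 10 of the 1445 such genes among all genes were. *ZNF18* had 43.8 FPKM in it and 3.77 and 7.25 in the other two, and *ZNF174* had 30.2 against 2.39 and 4.24. Without this library 18 *ZNF* genes were called higher and 5 lower against MII, and 4 and 8 against 4-cell embryos, where 18.9% and 9.75%, and 2.20% and 2.59% of all genes were. *ZNF532*, *ZNF582*, *ZNF593* and *ZNF608* then lost their call against MII, and *ZNF19*, *ZNF283*, *ZNF287*, *ZNF423* and *ZNF569* became called. Of the genes called higher in this fit, *ZNF131*, *ZNF287*, *ZNF296* and *ZNF394* were included through their 8-cell level. *ZNF395*, called lower, was included through its MII level. Their calls are a description only. The oocyte and early embryo markers did not move together there: *PADI6* stood at 78.5 FPKM in this library against 8.84 and 13.6 in the other two, while *ZP2* stood at 709.9 against 905.2 and 941.6. The part of this library's difference in the *ZNF* values was not tested.

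**Figure D4:**
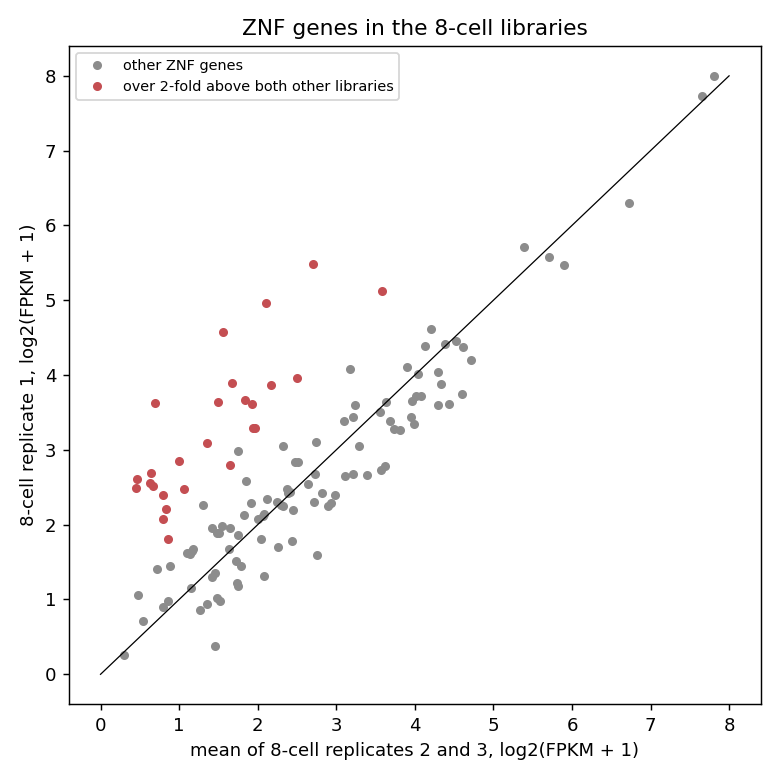
Level of the 127 *ZNF* genes in 8-cell replicate 1 (y axis) against the mean of 8-cell replicates 2 and 3 (x axis), both as log2(FPKM + 1), 1 point per gene, with the line of equality. The 26 genes in red were over 2-fold above both other libraries, as *ZNF18* with 43.8 FPKM.

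By known role, 12 genes of chromatin and transcription were listed. In 4-cell embryos against MII, 0 of them had a limma call, where 15.4% of all genes were called higher and 5.09% lower. By the unadjusted p with more than 2-fold it was also 0, where 1518 of all 9090 genes passed as higher and 551 as lower. Nothing is read from this count of 0 in so short a list. In 8-cell embryos *ZNF532* was called higher and *ZNF143* lower, besides *ZNF131*, which was included through its 8-cell level. With it, 16.7% of the 12 were called higher and 8.33% lower, where 18.5% and 7.58% of all genes were. *ZNF532*, a partner of the acetyl-lysine reader ZMYND8, had 1.65, 1.15 and 0.676 FPKM in oocytes and 8.81, 3.08 and 2.59 in 8-cell embryos (1.31 ± 0.40, limma adjusted p = 0.028). Its change was 0.85 without 8-cell replicate 1, and it was also not called without MII replicate 2 or MII replicate 3. In all, its call was lost under 7 of the 13 other fits, 2 of the 3 other scalings among them. Of the 6 listed genes of RNA and ribosome assembly, 0 were called by either p in 4-cell embryos, beside the values of all genes given above for each p. In 8-cell embryos *ZNF326* was called lower, in all 13 other fits as well, and *ZNF593*, which was included through MII, had a call that was lost under 6 of them. These 2 were 33.3% of the list, where 7.58% of all genes were called lower. Nothing is read from this share in so short a list. The spindle gene *ZNF207*, whose protein carries BUB3 to kinetochores, had 8.20 to 8.77 FPKM in oocytes and 13.0 to 18.2 in the 4- and 8-cell libraries, with no call.

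Among 17 fitted genes for partners of KRAB proteins, 3 were called higher against MII in both 4-cell and 8-cell embryos (17.6%, where 15.4% and 18.5% of all genes were), namely *CBX3*, which codes for an HP1 protein, *HDAC2* and *FAM208A*, which codes for TASOR of the HUSH silencing complex. *TRIM28* was called lower at both. It had 12.7, 9.63 and 15.2 FPKM in oocytes, 2.36, 5.55 and 2.65 in 4-cell embryos and 5.79, 1.05 and 1.03 in 8-cell embryos (-2.13 ± 0.48 in 8-cell embryos, limma adjusted p = 0.0071). *DNMT1*, the maintenance DNA methyltransferase, was called lower in 8-cell embryos, at a mean of 196 against 396 FPKM. *SETDB1* was not called (0.52 ± 0.40 in 8-cell embryos, limma adjusted p = 0.34). *HDAC2* and *FAM208A* lost both calls in all 3 other scalings, with changes of 0.57 to 1.07 in 4-cell and 0.73 to 0.97 in 8-cell embryos, so that of these 3 genes *CBX3* alone stayed called there. *TRIM28* and *DNMT1* stayed called in these scalings. *TRIM28* lost its call in 4-cell embryos without 4-cell replicate 1, 4-cell replicate 3, MII replicate 1 or MII replicate 3, and *DNMT1* lost its call without 8-cell replicate 1, MII replicate 1 or MII replicate 3. In the knockdown 1 of these 17 genes was called, *MORC3*, which was lower (5.88%, where 5.92% of all genes were called lower). It had 3.74 and 2.83 FPKM in the NC embryos and 0.82 and 0.33 in the knockdown embryos (-1.45 ± 0.42, limma adjusted p = 0.046). The call was lost under 8 of the 10 other fits, among them median-ratio rescaling, no filter and the replicate block. The 36 *ZBTB*, *ZSCAN*, *ZKSCAN* and *ZFP* genes had 8 calls higher (22.2%) and 2 lower (5.56%) in 4-cell embryos, where 15.4% and 5.09% of all genes were called. They had 8 higher (22.2%) and 1 lower (2.78%) in 8-cell embryos against MII, where 18.5% and 7.58% were. In the knockdown 34 were fitted, with 1 higher (2.94%) and 0 lower, where 2.06% and 5.92% were.

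Many *ZNF* genes lie in runs in the genome. In the reference annotation, a later release of the goat assembly used here only for neighbours, 36 of the 126 placed genes had another of the 127 in their run, with at most 2 other protein-coding genes between neighbours, and 71 stood alone. Genes of a run can be near copies of each other, and the authors kept only uniquely mapped reads, so levels of such copies are uncertain. The run with the most of the 127 genes, from *ZNF565* to *ZNF793*, held 8 of them. Its log2 fold changes in 4-cell embryos ran from -0.03 (*ZNF260*) to 1.06 (*ZNF461*), with 3 called higher (*ZNF382*, *ZNF461* and *ZNF568*, where 15.4% of all genes were), all of which lost this call in all 3 other scalings, and from 4- to 8-cell embryos from -1.26 (*ZNF793*) to 0.12 (*ZNF382*). Its members did not share 1 pattern. In 4-cell embryos the median was 0.70 for the 36 genes with such a neighbour and 0.39 for the 71 that stood alone, beside 0.29 for all genes. The order was the other way round in 8-cell embryos against MII (0.44 and 0.56, all genes 0.37) and from 4- to 8-cell embryos (-0.17 and 0.12, all genes 0.07). In the knockdown the medians were 0.33 for the 32 fitted genes with such a neighbour and -0.02 for the 61 fitted alone (all genes 0.01).

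The last comparison asked which RNAs differed when *YTHDF2* was knocked down, in libraries that played no part in the choice of the *ZNF* genes. *YTHDF2* itself had 112 and 159 FPKM in the NC embryos and 8.07 and 4.47 in the YTHDF2 knockdown embryos (-4.25 ± 0.43, limma adjusted p = 0.00037). Of the 127 *ZNF* genes 109 averaged at least 1 FPKM across the 4 libraries and were fitted. 0 were called higher, where 2.06% of all 11004 genes were, and 1 was called lower, where 5.92% were. The median log2 fold change was 0.06 for the *ZNF* genes and 0.01 for all genes. With 2 libraries a group, a gene that was not called is not shown to be unchanged.

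The gene called lower was *ZNF410*, a transcription factor known for control of *CHD4*. It had 50.02 and 105 FPKM in the NC embryos and 32.4 and 13.6 in the YTHDF2 knockdown embryos (-1.74 ± 0.49, limma adjusted p = 0.045). The call was lost under 8 of the alternatives tried, among them without either NC library or without YTHDF2 knockdown replicate 2, and the limma adjusted p ranged from 0.00023 to 0.33 and the log2 fold change from -2.34 to -1.14 over all of them.

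By the rule of the study, an unadjusted p under 0.05 with more than 2-fold, 6 *ZNF* genes were higher (9.48% of all genes were) and 12 lower (15.3% of all genes were). The values of some of these genes were looked at after the counts. *ZNF706* had 28.3 and 32.0 FPKM in the NC embryos and 62.1 and 90.7 in the knockdown embryos (1.29 ± 0.41, limma adjusted p = 0.063). *ZNF394* had 146 and 158 FPKM, then 94.2 and 39.5 (-1.30 ± 0.45, limma adjusted p = 0.080). *ZNF207* had 53.0 and 54.4 FPKM, then 29.7 and 18.8 (-1.15 ± 0.41, limma adjusted p = 0.092).

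None of these 3 genes had an adjusted p under 0.05. *ZNF622* and *ZNF830*, of the RNA and ribosome list, were also among the 12, at means of 8.03 and 29.2 FPKM in the NC embryos and 2.82 and 13.3 in the knockdown embryos. Other genes of the stage results were not called. *ZNF596* had 477 and 688 FPKM in the NC embryos and 515 and 351 in the knockdown embryos (-0.43 ± 0.38, limma adjusted p = 0.47), and *ZNF131* had 75.5 and 80.0, then 86.2 and 82.1 (0.11 ± 0.39, limma adjusted p = 0.87).

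**Figure D5:**
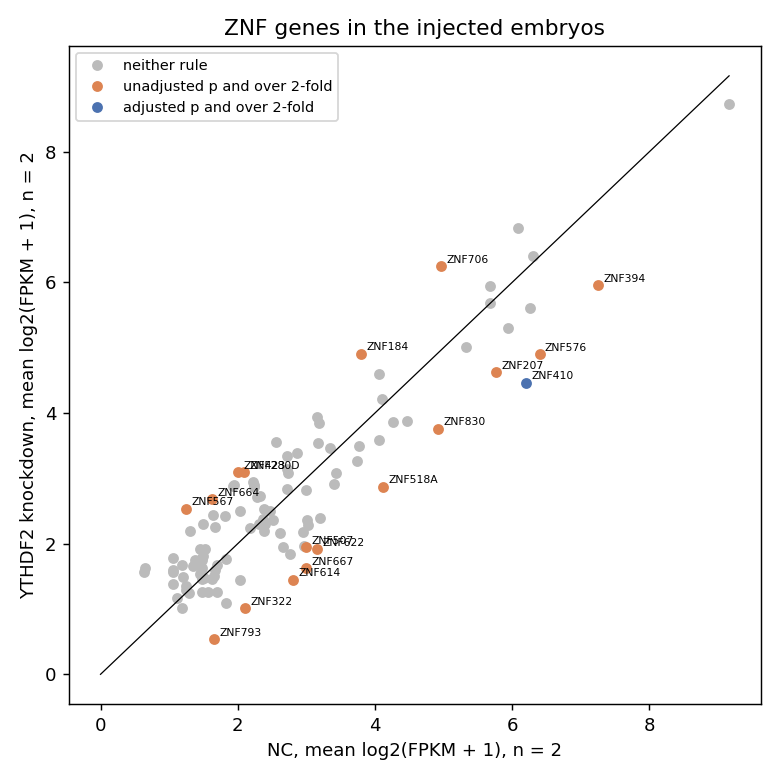
Mean log2(FPKM + 1) of the 109 fitted *ZNF* genes in YTHDF2 knockdown embryos (y axis, 2 libraries) against NC embryos (x axis, 2 libraries), 1 point per gene, with the line of equality. *ZNF410* (blue) was called by the adjusted p, and 17 more genes (orange), 6 higher and 11 lower, passed with the unadjusted p only.

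Markers moved with the injected groups. The oocyte and early embryo markers summed to 692 and 465 FPKM in the NC libraries and to 912 and 1695 in the knockdown libraries, so the groups did not overlap. The cumulus and granulosa markers summed to 18.7 and 19.6 FPKM in the NC and to 40.9 and 33.8 in the knockdown libraries, again mostly *HAS2* and *TNFAIP6*, with *FSHR* listed at 0 in all 4. The list did not move as a whole. *CD44* went the other way, from 2.26 and 2.14 FPKM in the NC to 0.43 and 0.24 in the knockdown libraries. *AMH* (0.03 to 0.39 FPKM) and *CYP19A1* (0.25 to 0.37) overlapped between the groups. The sperm markers (3 of 5 listed) summed to 12.6 and 12.3 FPKM against 25.1 and 3.51. Their part in the *ZNF* differences was not tested.

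The calls of 8-cell embryos against MII and those of the knockdown share no library and were set side by side. Of the 16 *ZNF* genes called higher in 8-cell embryos, all 16 were fitted in the knockdown and 7 (43.8%) lay lower there, with a median of 0.09, where 41.4% of the 1598 such genes among all genes did, with a median of 0.17. Of the 6 called lower, 5 were fitted and 3 lay lower, with a median of -0.02, as did 50.3% of the 642 such genes among all genes, also with a median of -0.02. *ZNF410* had no call at the stages, where it had 10.9 to 15.05 FPKM in oocytes and 14.5 to 23.5 in 8-cell embryos.

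The levels in the NC embryos, set beside those of untreated 8-cell stage embryos without a test because the values were normalized apart, differed widely for some genes. In the NC embryos 10 of the 127 *ZNF* genes had a mean over 4-fold higher and 10 over 4-fold lower on the log2(FPKM + 1) scale, or 7.87% each, where 12.1% and 9.54% of all genes did. *ZNF593* had 0.219 FPKM in the untreated and 81.5 in the NC embryos, *ZNF576* 1.14 and 84.9, *ZNF394* 8.08 and 152, and *ZNF131* 6.88 and 77.8. *ZNF706* went the other way with 234 and 30.1, as did *ZNF18* with 18.3 and 1.54. For *ZNF18* the untreated libraries had 43.8, 3.77 and 7.25 FPKM, so that its untreated mean rested on 8-cell replicate 1. The untreated and injected libraries differ in injection, in study of origin and possibly in time of collection, and these cannot be told apart.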

How the data were processed

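Smart-seq2 RNA-seq values of 13 goat libraries in 5 groups were used. Reads were mapped by the authors with HISAT2 to the goat assembly ARS1 and, where they mapped once, counted with HTSeq. The deposited values are FPKM per gene and library, and 0 columns of values were left unused. The members and gene lists were chosen with earlier results of these data known. Values were taken as log2(FPKM + 1), and limma 3.58.1 (lmFit and eBayes with trend, R 4.3.3) was run on the genes that averaged at least 1 FPKM, the 9 untreated libraries in 1 fit and the 4 injected libraries in another, since their values were normalized apart. A call needed a Benjamini-Hochberg adjusted p under 0.05 over all genes fitted and more than 2-fold. The fit was tested on simulated data. Whole fragments, within a tolerance of 0.05, were recovered for 17918 of 17918 shared genes above 0 in the stage tables, and 3 fragments were taken as the floor, for counting error only. Named are the 5 largest changes in each direction of a comparison among called genes with no overlap between groups, the 5 highest genes, the genes at the limit and called genes of the lists. Others were named after their values were seen, as was the grouping by genome runs. Gene names of all 127 matched the reference table. Alternatives were another pseudocount, no filter, other scalings, voom, a replicate block, the 2 stages alone, the unadjusted p and each library left out. Python 3.11.15 with pandas 2.3.3 was used for the rest.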

Additional observations from a re-analysis of the deposited data

How the results depend on the processing

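The genes fitted were the same under every alternative except the one without a filter, a choice made after a first run of the alternatives had been seen. In 4-cell embryos against MII, the calls were 21 higher and 1 lower. Higher calls numbered 10 with median-ratio rescaling, 10 with values scaled to the same sum over the shared names and 11 with voom on recovered fragments, and lower calls 2, 2 and 4, and 2 with a pseudocount of 0.1. The medians were 0.28, 0.10 and 0.10 with these 3 scalings. In 8-cell embryos against MII (16 and 6), higher calls were 8, 9 and 9 with the 3 scalings, lower calls 11 with voom, and the medians 0.19, 0.19 and 0.048. With a pseudocount of 0.1 higher calls were 28, where 21.9% of all genes were called higher. From the 4- to the 8-cell stage (3 and 7), higher calls were 5 with the unadjusted p, where 414 of all 9090 genes were. Calls were 1 and 4 with only the 2 stages in the fit, where 1.03% and 1.75% of all genes were called. In the knockdown (0 and 1), calls were 6 and 12 with the unadjusted p, 0 and 0 with median-ratio rescaling, a pseudocount of 0.1 or no filter, and 1 and 0 with values scaled to the same sum without *TMSB4X*. With no filter 0 of all 20357 genes were called by limma in the knockdown, and 3731 had an unadjusted p under 0.05. Leaving out 1 library at a time gave 16 to 21 higher and 0 to 1 lower in 4-cell embryos, 13 to 20 higher and 5 to 6 lower in 8-cell embryos against MII, and 0 to 4 and 3 to 8 from the 4- to the 8-cell stage. In the knockdown this left a lone library in a group, assumed to vary like the other group, so only medians are given. Without NC replicate 1 or 2 the median was 0.081 or 0.043 for the *ZNF* genes and 0.111 or -0.0779 for all genes. Without YTHDF2 knockdown replicate 1 or 2 it was 0.12 or 0.132, and -0.072 or 0.0577 for all genes. The causes were not tested. Of 348 values under alternatives for the 27 pairs of gene and comparison named by the rule above, 298 kept call and direction, 50 lost the call and 0 reversed. Calls of other genes in the text are not in this count. Some of these were lost often, as *ZNF608* (11 of 13) and *ZNF502* (9 of 13) in 8-cell embryos against MII. Others were lost in 0 of 13, as *ZNF507* there. Replicate numbers did not pair the samples (correlation of deviations -0.508 to 0.201 at the stages, -0.152 in the knockdown). With the replicate block, the calls were 20 and 0 for 4-cell against MII, 15 and 6 for 8-cell against MII, 3 and 3 between them, and 0 and 0 in the knockdown. The crossed pairing of the injected libraries, chosen after seeing the data, gave 2 and 9, where 6.25% and 12.5% of all 11004 genes were called. Voom used whole fragments for all 127 genes. The depth of the injected libraries is unknown, so no limit on low genes could be set there.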
